A study of Arabidopsis with 9 samples.

Results

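The presumed swi3d-1 mutant of Arabidopsis was compared with the syd-5 mutant to find the loci at which the 2 mutants differ from each other. Loci were taken where the authors' own test against the wild type (WT) had been carried out for both conditions and where at least 1 of the 2 conditions reached 5 FPKM. FPKM is the number of sequenced fragments scaled to the length of the transcript and to the depth of the library, so it is a level per length. This left 14295 loci, or 45.0% of the 31747 in the authors' deposited table.

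The samples were 14-day-old whole seedlings grown in long days without treatment, with 3 biological replicates each of WT, syd-5 and swi3d-1, and total RNA was sequenced. WT carries neither mutation, syd-5 is a mutant allele of SYD and swi3d-1 one of SWI3D. The sources used here do not give the kind of lesion, the background accession or how many seedlings were pooled per replicate. The table gives 1 pooled FPKM per locus for each of 3 conditions, with no value per replicate. Besides WT and syd-5 it has a condition under a name that ends in 3d and equals no sample label. That condition is read as swi3d-1 because swi3d-1 is the one labelled genotype left without an entry, and it was not assigned from any expression level. It is called presumed swi3d-1, or swi3d-1 for short, and the reservation holds for every value.

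SWI/SNF complexes use ATP to slide or evict nucleosomes and so change which stretches of DNA are accessible. SYD (SPLAYED) is one of the ATPases that can drive such a complex in Arabidopsis, and BRM (BRAHMA) is another. SWI3D is a scaffold subunit of the SWI3 family and is known as a partner of SYD, so the proteins can act in a shared complex. In the plant these complexes are known for roles in meristem maintenance, leaf and flower development and hormone responses.

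The difference between the mutants was measured in 2 ways. The size of a difference is the log2 of (FPKM in presumed swi3d-1 + 1) over (FPKM in syd-5 + 1), and a size of 1 or more, a fold of 2 on that scale, was counted as past the fold, with no test. The test used the log2 ratio of swi3d-1 to syd-5 without the added 1. Its standard error, called the implied error here, was derived from the statistics of the authors' tests of each mutant against WT. A locus passed at an adjusted p (Benjamini-Hochberg over 14291 loci, two-sided normal test) under 0.05, and only such loci are said to be higher or lower by test. The error of WT is counted in both ratios, so the test is conservative for it. A lower level in bulk tissue can come from fewer cells of a type or from less RNA per cell, and these cannot be told apart here.

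The mutants were close to each other. The median size over the 14295 loci was -0.01, the quartiles were -0.10 and 0.08, and 13980 loci (97.8%) lay within 0.5 of 0. Past the fold were 38 loci, 0.266% of the 14295, with 22 higher in presumed swi3d-1 (0.154%) and 16 lower (0.112%). Over the same loci 987 (6.90%) were past the fold between swi3d-1 and WT, and 974 (6.81%) between syd-5 and WT. The authors' deposited table gives q under 0.05 against WT for 4181 of them (29.2%) in swi3d-1 and 4139 (29.0%) in syd-5. The difference test was passed by 14 loci, 0.0980% of those tested, of which 10 (0.0700%) were higher in swi3d-1 and 4 (0.0280%) were lower. At an unadjusted p under 0.05 there were 326 loci, or 2.28%. Both counts depend on the settings. The count past the fold was 67 with 0.1 added in place of 1, 70 with a minimum of 1 FPKM or none and 21 with a minimum of 10. The count past the test was 3 (SYD, SWI3D and ATCG00020) with the larger errors that the authors' statistic itself implies. It was 154 with the summed variance halved, which assumes equal errors in the 3 conditions. It was 0 with each error taken from its own deposited p, a treatment in which the smallest p in the authors' deposited table, 5e-05, limits how far a locus can stand out (adjusted p 0.347 for SYD and SWI3D).

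**Figure D1:**
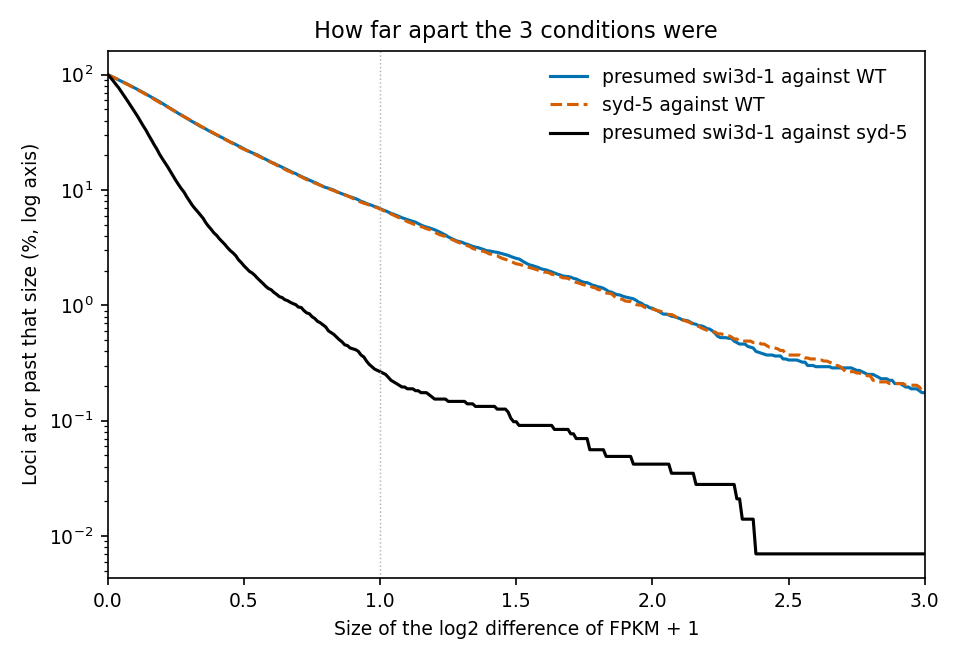
Share of the 14295 loci (log axis, in percent) whose log2 difference of FPKM + 1 is at or past the size on the x axis, for each mutant against WT and for presumed swi3d-1 against syd-5. At a size of 1 (dotted line) the shares are 6.90% for swi3d-1 against WT, 6.81% for syd-5 against WT and 0.266% for swi3d-1 against syd-5.

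The low level of many of these loci bears on how they are read. Of the 14295 loci, 485 reached 5 FPKM in only 1 of the 2 conditions, 211 through presumed swi3d-1 and 274 through syd-5, and such loci entered because that condition was the higher one. They hold 24 of the 38 loci past the fold and 7 of the 14 that passed the test. Those 7 are SYD, DIN2, IPS1, PS2 and PEPC1 through swi3d-1, and SWI3D and CYP82F1 through syd-5. The last locus inside the limit was AT1G05700, at the limit of 5 FPKM in syd-5 and with 4.45 in swi3d-1, and the first outside it was IGMT2, with 4.999 and 3.67. The median implied error was 0.214, and at that error a log2 ratio of 0.893 was needed to pass. Of the 38 loci past the fold 10 passed the test, 26 did not and 2 had no test, and the implied errors of the 26 ran from 0.308 (AT3G28220) to 2.69 (HSP17.4).

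**Figure D2:**
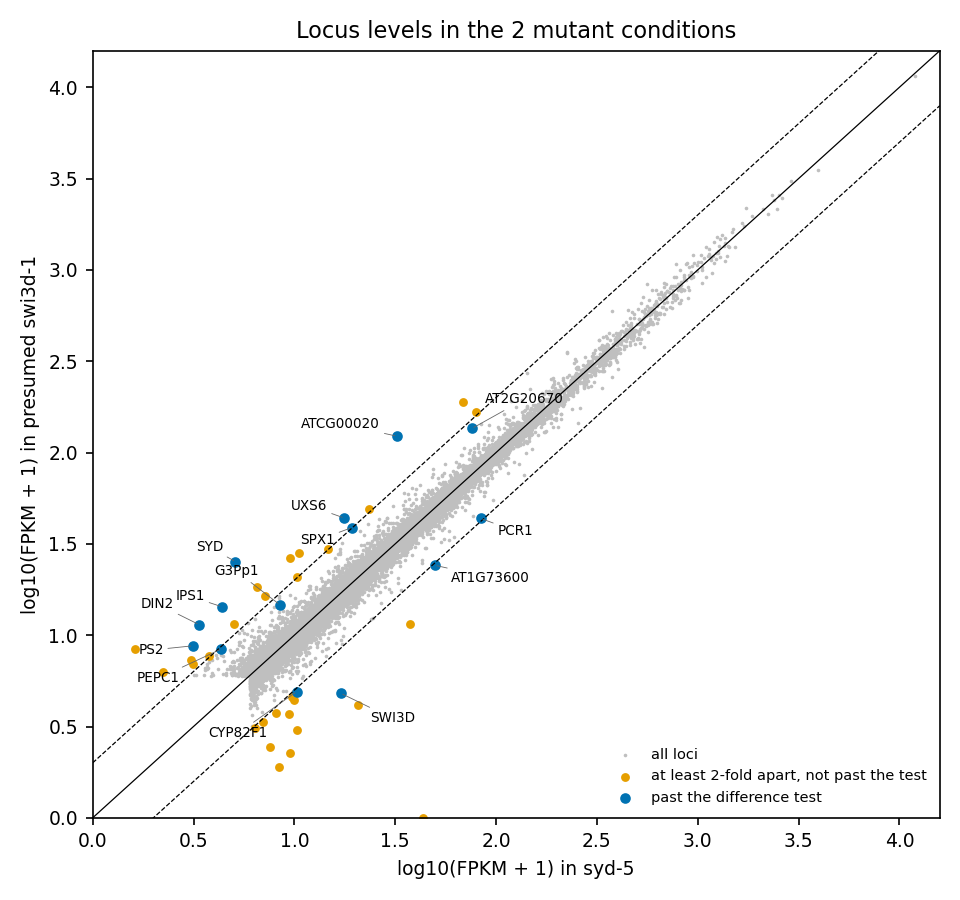
Level of each of the 14295 loci in syd-5 (x axis) and presumed swi3d-1 (y axis) as log10(FPKM + 1), with the line of equal levels and, dashed, the lines of a 2-fold difference. The 14 loci that passed the difference test are blue and named (UXS6 marks the merged locus of AT2G28755 and UXS6), and 28 loci past the fold that did not pass it or were not tested are orange.

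The 2 targeted genes had the smallest adjusted p of all loci. SYD (AT2G28290) lies on chromosome 2 at 12054736 to 12073412 in TAIR10. Its level was 23.1 FPKM in WT, against 4.11 in syd-5 and 24.3 in presumed swi3d-1. It was low in syd-5 alone, with a log2 ratio of swi3d-1 to syd-5 of 2.56 (implied error 0.190, adjusted p 1.91e-37), a fold of 5.92. SWI3D (AT4G34430) lies on chromosome 4 at 16460914 to 16465361. Its level was 16.4 FPKM in WT, against 16.0 in syd-5 and 3.81 in swi3d-1. It was low in swi3d-1 alone, with a log2 ratio of -2.07 (implied error 0.233, adjusted p 3.45e-15), 4.21-fold lower. The low gene is thus the one each mutant is named for, and these levels were not used to name either condition.

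No other subunit of SWI/SNF complexes was past the test or the fold, where only 0.0980% and 0.266% of all loci were. That absence is no result about the subunits. All 17 genes on the list of subunits were among the loci, and outside SYD and SWI3D their sizes ran from -0.16 for the merged locus of SWI3A and AT2G47630 to 0.23 for AT1G76380. BRM, the related ATPase, had 29.5 FPKM in syd-5 and 29.8 in presumed swi3d-1, and the 95% interval of its log2 ratio ran from -0.37 to 0.40. The scaffold subunits SWI3B and SWI3C had 22.2 and 18.7 FPKM in syd-5 and 21.9 and 18.6 in swi3d-1. BSH, the SNF5-type core subunit, had 14.4 and 15.9 FPKM. Among neighbours on the chromosome, none of the 23 loci within 100 kb of SYD was past the test or the fold. The same held for the 35 within 100 kb of SWI3D. Over all loci only 0.0980% were past the test and 0.266% past the fold, so these counts are no result about the neighbours.

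Of the 10 loci higher in presumed swi3d-1 by test, 5 are genes known to be induced when phosphate runs short. Only IPS1, PS2 and SPX1 of these are on the list of phosphate genes, which holds 15 of the 14295 loci. How many of all loci are such genes was not counted. Each of the 5 was highest in WT, intermediate in swi3d-1 and lowest in syd-5. IPS1, a non-coding RNA that sequesters the microRNA miR399, stood at 50.2 FPKM in WT, at 3.36 in syd-5 and at 13.3 in swi3d-1. Its log2 ratio of swi3d-1 to syd-5 was 1.99 (implied error 0.367, adjusted p 0.000129), 3.96-fold. PS2, a phosphate-starvation-induced phosphatase gene, had 43.5, 2.14 and 7.75 FPKM in the same order, a log2 ratio of 1.86 (implied error 0.288, adjusted p 4.26e-07). SPX1, whose protein senses phosphate status and restrains the regulator PHR1, had 119.9, 18.24 and 37.8 FPKM. Its log2 ratio was 1.05 (implied error 0.199, adjusted p 0.000212).

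The other pair was PEPC1 and G3Pp1, which were not on the list of phosphate genes and were grouped with it after their values were seen. PEPC1 (AT1G17710), a phosphatase acting on phosphoethanolamine and phosphocholine, had 26.3 FPKM in WT, against 3.35 in syd-5 and 7.40 in presumed swi3d-1, a log2 ratio of 1.15 (implied error 0.275, adjusted p 0.0320). G3Pp1 (AT3G47420), a glycerol-3-phosphate permease gene, had 40.3, 7.45 and 13.7 FPKM, a log2 ratio of 0.88 (implied error 0.202, adjusted p 0.0141). Of the pair, PEPC1 entered through swi3d-1 only, the condition in which it was higher. In the authors' deposited table all 5 genes were below WT in both mutants, each with q = 0.000567, the smallest q in the table. Both mutants were thus below WT, and syd-5 was the lower one.

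**Figure D3:**
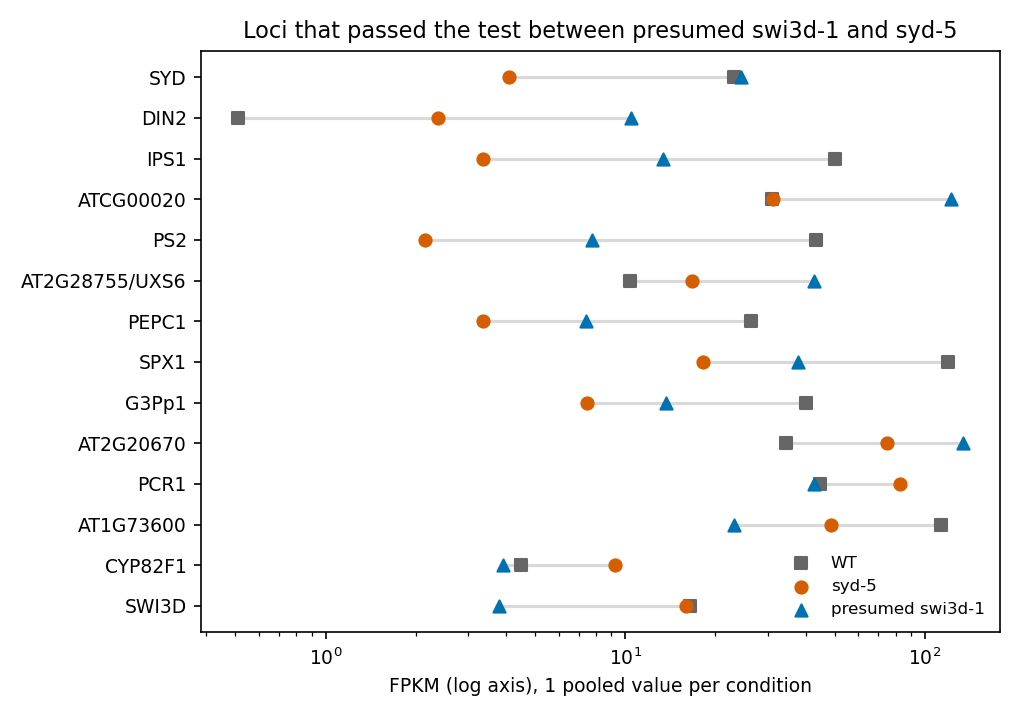
FPKM (log axis) of the 14 loci that passed the difference test, in WT (squares), syd-5 (circles) and presumed swi3d-1 (triangles), 1 pooled value per condition and ordered by the log2 ratio of swi3d-1 to syd-5. In 5 of them (IPS1, PS2, PEPC1, SPX1 and G3Pp1) swi3d-1 lies between syd-5 and WT, in 6 syd-5 is nearer to WT on the same side, and in 3 (SYD, PCR1 and CYP82F1) WT lies between the mutants.

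On the list of 19 phosphate-starvation genes, 15 were among the loci. Of these, 13 had a higher level in presumed swi3d-1, where 46.2% of all loci did, and 6 had a size of 0.5 or more, where 1.23% of all loci did. Past both the fold and the test with a higher level were 3, where 0.154% and 0.0700% of all loci were past each. None was lower past either, where 0.112% and 0.0280% of all loci were, so that absence is no result about the list. Of the 2 mutants, IPS1 and PS2 reached 5 FPKM in swi3d-1 only, so they entered through the condition in which they were higher. The median size was 0.14, against -0.01 over all loci. The next members did not pass the test. The high-affinity transporter PHT1;4 had 13.8 FPKM in syd-5 and 21.0 in swi3d-1, the glycerophosphodiester phosphodiesterase GDPD1 had 27.8 and 42.8 (both adjusted p 0.319), and the acid phosphatase PAP17 had 25.1 and 36.9. Other members had sizes near 0. PHR1, the master transcription factor, had 37.3 FPKM in syd-5 and 39.4 in swi3d-1, PHO2, the ubiquitin-conjugating enzyme that limits uptake, had 43.7 and 46.3, and the transporter PHT1;1 had 53.8 and 53.3.

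**Figure D4:**
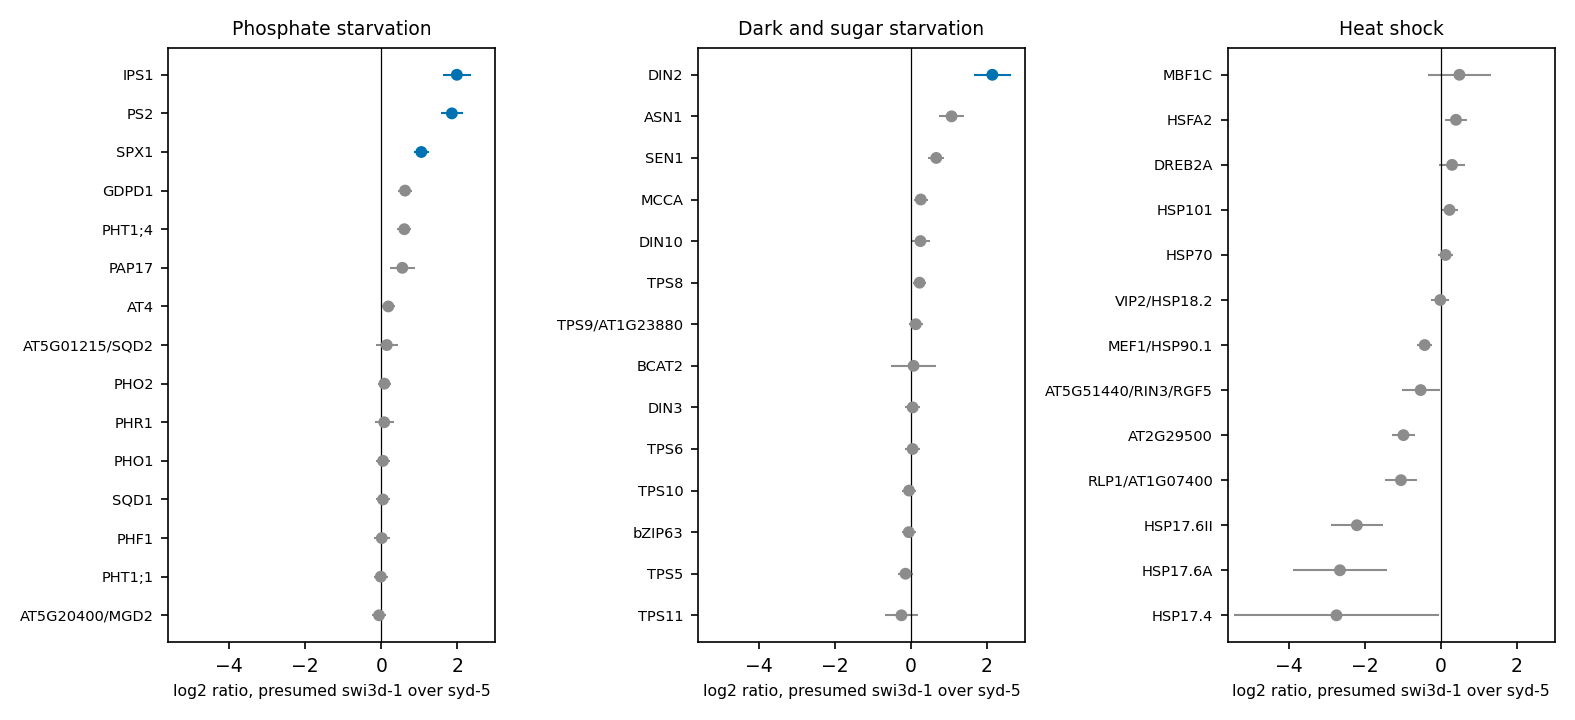
Log2 ratio of presumed swi3d-1 to syd-5 for each member of the phosphate starvation, dark and sugar starvation and heat shock lists, with 1 implied standard error to each side. Blue points passed the difference test (IPS1, PS2, SPX1 and DIN2), and gray points did not.

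Genes of darkness and sugar starvation, which are switched on when carbon runs short, were led by DIN2. DIN2 (AT3G60140), a beta-glucosidase gene, had 0.509 FPKM in WT, against 2.37 in syd-5 and 10.4 in presumed swi3d-1. It was 4.41-fold higher in swi3d-1 than in syd-5 (log2 ratio 2.14, implied error 0.485, adjusted p 0.0124), so here swi3d-1 was farther from WT. DIN2 entered through swi3d-1 only, the condition in which it was higher. ASN1, a dark-induced asparagine synthetase gene, had 1.12 FPKM in WT, against 78.7 in syd-5 and 164.9 in swi3d-1. Its log2 ratio of 1.07 had an implied error of 0.319, and it was past the fold but not past the test (adjusted p 0.280). SEN1 had 376 FPKM in syd-5 and 596 in swi3d-1, also short of the test (adjusted p 0.425). Of the 18 genes on the list 14 were among the loci, 10 of them with a higher level in swi3d-1, where 46.2% of all loci had one. Their median size was 0.09, against -0.01 over all loci. The trehalose-6-phosphate synthase-like genes TPS5, TPS6, TPS8, TPS10 and TPS11 had sizes from -0.24 to 0.22.

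A plastid gene had the smallest adjusted p after the targeted pair. ATCG00020 (plastid genome, 383 to 1444), at the same position as psbA in the RefSeq table, encodes the D1 protein of photosystem II and had 30.8 FPKM in WT, against 31.3 in syd-5 and 121.9 in presumed swi3d-1. Its level was 3.90-fold higher in swi3d-1 than in syd-5 (log2 ratio 1.96, implied error 0.226, adjusted p 1.63e-14). The nuclear Rubisco small subunit gene RBCS1A stood far above it, at 16594 FPKM in WT. How fully the libraries retained plastid RNA was not tested, so the plastid differences given here are differences of measured level only. Only 5 plastid loci were among those compared, and 3 of them were past the fold, all with a higher level in swi3d-1, where 0.154% of all loci were. Among the plastid loci not tested in both comparisons, ATCG00300 had 26.6 FPKM in syd-5 and 14.4 in swi3d-1, and ATCG01020 had 724.5 in syd-5 and was listed at 0 in swi3d-1. The 2 other plastid loci past the fold are stretches in which many genes were merged and whose levels cannot be split. One, spanning 36699 to 93358, had 22.5 FPKM in syd-5 and 48.4 in swi3d-1, and the other, spanning 114461 to 129926, had 1.23 and 5.26. Neither passed the test. The second reached 5 FPKM in swi3d-1 only, so it entered through the condition in which it was higher. A further merged plastid locus, with the same span of 36699 to 93358, had 80.9 FPKM in syd-5 and 99.96 in swi3d-1. Its size was 0.30, not past the fold. Of the 3 mitochondrial loci, none was past the fold.

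Nuclear genes for light harvesting and Rubisco, held on 1 list, did not pass the test. All 21 genes on that list were among the loci, and 16 of them had a higher level in presumed swi3d-1, against 46.2% of all loci, with a median size of 0.22. The Rubisco small subunit genes on it mostly lay the other way. RBCS1A, RBCS1B and RBCS3B had 12006, 2224 and 3947 FPKM in syd-5 and 11515, 2014 and 3543 in swi3d-1. RBCS2B was higher in swi3d-1, with 1854 FPKM in syd-5 and 1968 in swi3d-1. LHCB1.4 had 32.8 FPKM in WT, against 67.9 in syd-5 and 189 in swi3d-1, a log2 ratio of 1.48 (implied error 0.3997, adjusted p 0.128), and LHCB1.5 had 86.7, 141 and 273 (adjusted p 0.226). These belong to a family of nearly identical chlorophyll-binding protein genes whose reads can be split between copies, so their values are uncertain. The best-expressed copy, LHCB1.3, had 2337, 1743 and 2194 FPKM.

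The remaining 2 loci higher in presumed swi3d-1 had no shared list. The merged locus of AT2G28755 and UXS6, the latter a UDP-xylose synthase gene of cell wall sugar supply, had 10.4 FPKM in WT, against 16.7 in syd-5 and 42.8 in swi3d-1, a log2 ratio of 1.36 (implied error 0.231, adjusted p 1.05e-05). It starts 279 kb from SYD on chromosome 2, and reads of its 2 genes cannot be split. AT2G20670 had 34.3, 75.02 and 134.5 FPKM, a log2 ratio of 0.84 (implied error 0.189, adjusted p 0.0107). Both loci were above WT in both mutants and farther above it in swi3d-1.

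Besides SWI3D, 3 loci were lower in presumed swi3d-1 by test. AT1G73600 had 113.6 FPKM in WT, against 48.7 in syd-5 and 23.2 in swi3d-1, a log2 ratio of -1.07 (implied error 0.185, adjusted p 1.81e-05). PCR1, a gene of the plant cadmium resistance family of membrane proteins, had 44.5, 82.9 and 42.6 FPKM, a log2 ratio of -0.96 (implied error 0.214, adjusted p 0.00959). CYP82F1, a cytochrome P450 gene, had 4.50, 9.26 and 3.91 FPKM, a log2 ratio of -1.24 (implied error 0.267, adjusted p 0.00515). For the last pair swi3d-1 was near WT, and in the authors' deposited table syd-5 was above WT (q = 0.000567 for each) while swi3d-1 did not pass against WT (q = 0.840 for PCR1 and 0.541 for CYP82F1).

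Small heat-shock protein genes were among the loci past the fold with a lower level in presumed swi3d-1, with wide errors. HSP17.6A, a chaperone gene that is nearly silent in unstressed plants, had 0.222 FPKM in WT, against 19.7 in syd-5 and 3.15 in swi3d-1, a log2 ratio of -2.65 with an implied error of 1.25. HSP17.6II had 0.759, 9.29 and 2.02 FPKM (log2 ratio -2.20, implied error 0.680, adjusted p 0.319), and HSP17.4 had 0.248, 8.48 and 1.27 (log2 ratio -2.74, implied error 2.69). All 3 were past the fold and none passed the test. All 3 were below 5 FPKM in swi3d-1, so they entered through syd-5 only, the condition in which they were higher. Of the 17 genes on the list 13 were among the loci, 8 of them with a lower level in swi3d-1, where 53.8% of all loci had one, and 6 with a size of -0.5 or below, where 0.972% did. The list's median size was -0.41, but 0.13 over its 9 loci with a single gene name. The larger chaperone genes HSP70 and HSP101 had 119 and 14.4 FPKM in syd-5 and 130 and 16.9 in swi3d-1. The merged locus of MEF1 and the large chaperone gene HSP90.1 lay the other way, with 61.9 FPKM in syd-5 and 46.2 in swi3d-1.

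Hormone lists held no locus past the test. All 8 A-type response regulator genes of cytokinin signalling among the loci had a lower level in presumed swi3d-1, against 53.8% of all loci, with a median size of -0.39. ARR15 had 1.88 FPKM in WT, against 5.36 in syd-5 and 2.11 in swi3d-1 and was past the fold, and ARR6 had 9.05, 28.5 and 17.0 (adjusted p 0.578). ARR15 and ARR3 (5.84 FPKM in syd-5 and 4.50 in swi3d-1) entered through syd-5 only, the condition in which they were higher. Among 17 jasmonate genes 10 had a higher level in swi3d-1, against 46.2% of all loci. JAZ7, a jasmonate repressor gene, had 0.560, 6.17 and 15.3 FPKM, with a log2 ratio of 1.31 and an implied error of 0.672, and the defensin gene PDF1.2 lay the other way, with 25.96 FPKM in syd-5 and 14.1 in swi3d-1. Among 20 genes of salicylic acid and immunity 13 had a lower level in swi3d-1, against 53.8% of all loci. The pathogenesis-related genes PR1 (201 FPKM in syd-5 and 138 in swi3d-1), PR5 (114 and 76.1) and BGL2 (128.5 and 85.1) were among the 13. Auxin genes had a median size of 0.19 over 14 loci, gibberellin genes 0.05 over 7, and abscisic acid and cold genes -0.05 over 13.

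**Figure D5:**
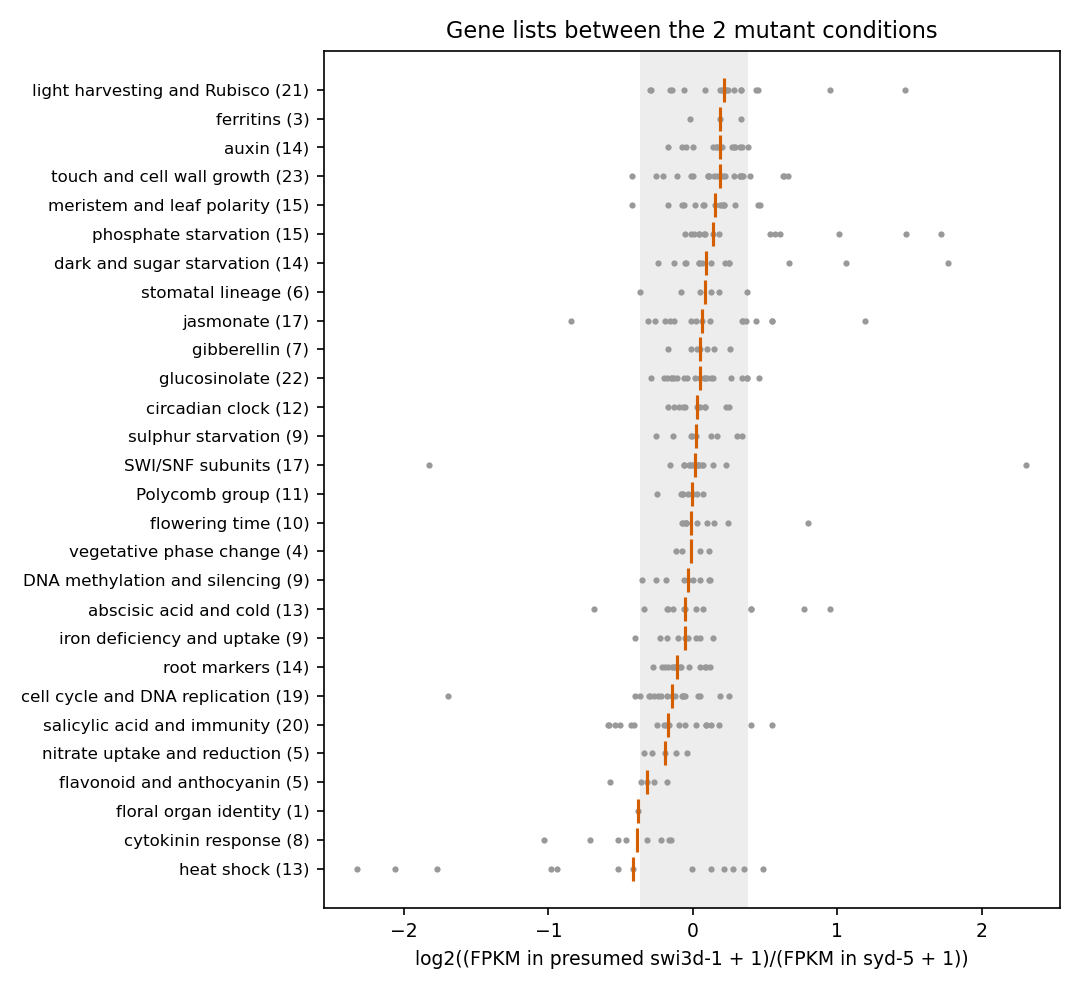
Size of the difference, as the log2 of (FPKM in presumed swi3d-1 + 1) over (FPKM in syd-5 + 1), for each locus (gray points) of 28 gene lists, with the number of loci in brackets and the list median as an orange bar. The gray band holds the central 95% of all 14295 loci, from -0.36 to 0.38, and all list medians but those of cytokinin response, heat shock and floral organ identity, the last with 1 locus, lie within it.

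Developmental and chromatin lists held no further locus past the test. Flowering-time genes had a median size of -0.01 over 10 loci, with the floral repressor FLC (3.89 FPKM in WT, against 8.53 in syd-5 and 15.6 in presumed swi3d-1) the farthest, at 0.80 and not past the test. Meristem and leaf polarity genes had a median of 0.15 over 15 loci, Polycomb group genes -0.01 over 11, and genes of DNA methylation and silencing -0.03 over 9. Cell cycle and DNA replication genes had a median of -0.15 over 19 loci, 15 of them with a lower level in swi3d-1, against 53.8% of all loci. The merged locus of AT4G37483 and the mitotic cyclin gene CYCB1;1 was past the fold, with 36.5 FPKM in syd-5 and 10.6 in swi3d-1, a size of -1.70, and its log2 ratio had an implied error of 1.99. Touch and cell wall growth genes had a median of 0.19 over 23 loci, with the endotransglucosylase genes TCH4 (223 FPKM in syd-5 and 352 in swi3d-1) and XTH16 (90.8 and 140.8) the farthest and neither past the test.

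Nutrient lists other than phosphate held none either. Iron deficiency genes had a median of -0.06 over 9 loci, and NAS1, a nicotianamine synthase gene, had 183.8 FPKM in WT, against 19.8 in syd-5 and 19.0 in presumed swi3d-1. Sulphur starvation genes had a median of 0.02 over 9, and APR1, a gene of sulphate assimilation, had 86.0, 19.9 and 20.2 FPKM. Nitrate uptake and reduction genes had a median of -0.20 over 5. Clock genes had a median of 0.03 over 12 loci and ran from -0.17 to 0.25. Flavonoid genes had a median of -0.31 over 5, all lower in level in swi3d-1, against 53.8% of all loci. The chalcone synthase gene CHS had 333 FPKM in syd-5 and 224 in swi3d-1 (adjusted p 0.890).

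The organ make-up of the 2 mutants was compared through markers. The summed level of 20 root markers was 2783 FPKM in syd-5 and 2429 in presumed swi3d-1, against 1953 in WT, and 14 of them reached 5 FPKM, with sizes from -0.27 to 0.12 and none past the test. Most of that sum was the beta-glucosidase gene PYK10, and the 19 other root markers summed to 299.6 FPKM in syd-5 and 282.9 in swi3d-1. The summed level of 4 leaf markers was 12930 in syd-5 and 12595 in swi3d-1. Most of it was the Rubisco small subunit gene RBCS1A, and the 3 other leaf markers lay the other way, with 924 FPKM in syd-5 and 1081 in swi3d-1. Of 9 floral organ markers only SEP3 reached 5 FPKM, with 19.4 in syd-5 and 14.7 in swi3d-1. None of 10 seed storage markers did, and 2 of them were at 0 in both mutants. The part of organ proportions in the differences above was not tested.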

How the data were processed

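Total RNA of 3 replicates each of WT, syd-5 and swi3d-1 seedlings was sequenced. The submitters' processing notes name the TAIR10 genome with Cuffdiff 2.1.1, Cufflinks 2.1.1 and TopHat2 2.1.1. Strandedness is not given in the sources used here, so reads of genes that overlap, antisense pairs included, cannot be told apart. Per the file headers, the authors deposited 1 pooled FPKM per locus and condition, a test statistic (a score) and a p-value and q-value for each mutant against WT. Depth is unknown, and no interval from counts was made.

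Values of the presumed swi3d-1 condition and syd-5 were joined by locus. The implied error of a log2 ratio to WT was its size over the statistic, divided by 1.74, the median ratio of the normal deviate of the deposited p-value to the statistic. The squared errors of both ratios were summed. A linear model on single libraries, the first choice, was not fitted, since only pooled values are in the table. Computation used Python 3.11.15, numpy 2.4.6, pandas 2.3.3 and scipy 1.17.1. The test was also run on simulated data, with an outcome that is not reported here and supports no value above.

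The 29 gene lists (503 genes), the loci compared and the tests were chosen with earlier results of these data known. The rule for named genes takes SYD, SWI3D, up to 12 test-passing loci with 1 gene name per direction and up to 3 test-passing members per list. The other genes named (the merged AT2G28755 and UXS6 locus, and every member that did not pass the test) were added after their values were seen. Symbols came from a RefSeq table of TAIR10.1, which matched 32806 of 33553 identifiers. The alternatives were other pseudocounts, FPKM minimums, scalings and error treatments and the removal of merged or organelle loci.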

Additional observations from a re-analysis of the deposited data

Results flagged for a closer look

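The effects of the mutants against WT differed by test at 14 loci, given here as log2 ratios of the presumed swi3d-1 condition to syd-5. Higher in swi3d-1 were SYD (2.56), DIN2 (2.14), IPS1 (1.99), ATCG00020 (1.96), PS2 (1.86), the merged locus of AT2G28755 and UXS6 (1.36), PEPC1 (1.15), SPX1 (1.05), G3Pp1 (0.88) and AT2G20670 (0.84). Lower were PCR1 (-0.96), AT1G73600 (-1.07), CYP82F1 (-1.24) and SWI3D (-2.07).

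At 4 loci that were not tested in both of the authors' comparisons, WT was listed at 0 and a mutant reached 5 FPKM. MRD1 was at 7.60 FPKM in swi3d-1 and listed at 0 in syd-5, and AT2G35743 was at 9.32 in swi3d-1 and listed at 0 in syd-5. AT3G49551 had 5.70 FPKM in syd-5 and 6.68 in swi3d-1, and the plastid locus ATCG00300 had 26.6 in syd-5 and 14.4 in swi3d-1. A further plastid locus, ATCG01020, had 475.5 FPKM in WT and 724.5 in syd-5 and was listed at 0 in swi3d-1.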

How the results depend on the processing

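The count past the fold (38) was 67 with a pseudocount of 0.1 (42 higher in presumed swi3d-1, 25 lower), 70 with a minimum of 1 FPKM and 70 with none (37 and 33 in each), and 21 with a minimum of 10 (16 and 5), and it stayed within 34 to 38 under the 4 other settings. The count past the test (14) was 3 (SYD, ATCG00020 and SWI3D) with errors on the scale of the deposited statistic and 154 (102 higher, 52 lower, the 14 among them) with the summed variance halved, which assumes equal errors in the 3 conditions. It was 0 with each error taken from its own deposited p, a treatment added after seeing the data. There the smallest deposited p, 5e-05, limits how large a deviate can be, and 159 loci had an unadjusted p under 0.05. It was 11 to 17 under the 4 other settings. No direction among the 14 loci changed, but only centring on the median difference of all loci altered their log2 ratios. The other settings changed the errors or the set of loci, so they could not reverse a direction. Of 87 list medians recomputed, 1 moved by more than the median implied error of its loci, that of heat shock, from -0.41 to 0.13 over loci with 1 gene name. The log2 ratios of named genes hold no pseudocount. No paired analysis was possible because only pooled values per condition are in the table, and leaving out single replicates could not be run for the same reason. Depth is unknown. The median implied error was 0.283 over the 2859 loci with the lowest FPKM and 0.185 over the 2859 with the highest.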

Other observations

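A list of 19 genes of the response to low oxygen was drawn up after some of their values had been seen, so its counts are a description and support nothing. Of its 17 loci compared, 16 had a lower level in presumed swi3d-1 than in syd-5 (53.8% of all loci did) and 8 a size of -0.5 or below (0.972% of all loci), with a median size of -0.35. None was past the difference test or the fold. SUS4, a sucrose synthase gene, had 1.89 FPKM in WT, against 10.1 in syd-5 and 5.0 in swi3d-1. HB1, a non-symbiotic haemoglobin gene, had 19.6, 52.0 and 31.4 FPKM, PCO1, a plant cysteine oxidase gene that senses oxygen, had 4.34, 15.1 and 8.04, and ADH1, the alcohol dehydrogenase of fermentation, had 11.9, 42.0 and 24.7. All 4 named genes were highest in syd-5 and lowest in WT.

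Other loci past the fold had levels without a list. The lipid transfer protein gene LTP3 had 2.504 FPKM in WT, against 8.48 in syd-5 and 25.3 in swi3d-1 (log2 ratio 1.58, implied error 0.444, adjusted p 0.185). CLE26, a peptide hormone gene, had 5.93, 2.09 and 6.32 FPKM (implied error 0.798). PDF1.5, a defensin-like gene, had 15.3, 7.42 and 0.892 (implied error 1.03, adjusted p 0.567). Neither gene passed the test. AT3G51390 had 4.29 FPKM in WT and 42.4 in syd-5 and was listed at 0 in swi3d-1, and DMP1 was listed at 0 in WT and had 0.623 and 7.40 FPKM in syd-5 and swi3d-1. Neither AT3G51390 nor DMP1 had a difference test. In the authors' deposited table AT3G51390 did not pass against WT in syd-5 (q = 0.616). AT5G20790 had 126, 13.7 and 28.5 FPKM, the same order of conditions as the phosphate genes, and did not pass the test (adjusted p 0.319).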
